A study of Mus musculus with 9 samples.

Results

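The 96 genes described here had their highest counts in kidney cell cultures that received TNF together with the inhibitor ACHP, above both untreated cultures and cultures with TNF alone. They were picked out of 57010 genes in a table of RNA sequencing counts, after the counts of each library were scaled to a total of 1000000 (CPM). A gene was taken when its mean was at least 3 CPM in the TNF plus ACHP libraries, when the lowest of those libraries lay above the highest of all 6 PBS and TNF libraries, and when their mean was at least 15% above the PBS mean and the TNF mean. Of 11299 genes with a mean of at least 3 CPM in the TNF plus ACHP libraries, 0.85% met the rule. Since the genes were chosen by their CPM in both comparisons with ACHP, their levels with ACHP are given as a description. A test across all genes also called some of them in those comparisons, and where they are counted in a gene list those calls rest on the values of the choice and support nothing. The difference between TNF and PBS was not a condition of the choice and was tested. The rule did hold all TNF and PBS values below those with ACHP, so this test is not independent of the choice.

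The cells were primary cultures of renal cells, grown from enzyme-digested whole kidneys of wild-type mice, so they hold several cell types. Cultures were treated for 6 h with PBS, with 20 ng/mL TNF, or with 20 ng/mL TNF and 1 µM ACHP, and 3 libraries of total RNA were sequenced per group. No group received ACHP without TNF, so an effect of ACHP by itself and one that needs TNF cannot be told apart. The labels do not say whether replicates came from separate animals, and p-values measure the spread between these libraries, which may be technical.

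TNF is an inflammatory cytokine that activates the IKK complex in kidney cells. IKK marks the inhibitor proteins of NF-kB for destruction, and NF-kB then enters the nucleus and switches on chemokine, adhesion and feedback genes. ACHP blocks IKK beta. TNF also signals through MAP kinases and AP-1, and a second, non-canonical NF-kB route depends on the kinase NIK.

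Total counts per library ran from 14194295 to 20892176. Some libraries stood apart in transcripts of nerve cells: the sum over 25 neuron markers was 22.2 CPM in PBS replicate 1, 136.8 and 106.6 in PBS replicates 2 and 3, 59.3 to 93.3 with TNF and 21.9 to 23.9 with TNF plus ACHP. Sums of astrocyte and oligodendrocyte markers were also lowest in PBS replicate 1 and the TNF plus ACHP libraries, at 150.7 and 123 CPM in the former. Snap25, a synaptic protein gene, was at 0.0705 CPM in PBS replicate 1, at 12.1 in PBS replicate 2 and at most 0.122 with TNF plus ACHP. The sum over 17 markers of macrophages and dendritic cells was 43.2 to 49.0 CPM in PBS, 46.7 to 48.9 with TNF and 19.6, 19.002 and 20.96 with TNF plus ACHP, and in bulk RNA fewer cells of a type and less RNA per cell cannot be told apart. Of kidney markers, 15 proximal tubule genes summed to 30.4 to 48.2 CPM, with Slc34a1 and Slc5a2 at or near 0, and 15 collecting duct genes summed to 79.3 to 115.8 CPM, with Aqp2 at 0. Fibroblast markers summed to 5283 to 6700 CPM, of which Fn1 alone gave 5079 to 6508, and 5 of 9 fibroblast genes were called lower and 1 higher with TNF plus ACHP than with PBS. None of the 96 genes is in any of the 14 marker lists. The TNF plus ACHP mean of 78 was also at least 15% above PBS replicate 1, the PBS library with few neuron transcripts. The rule already placed all 96 above that library, so this count rests on the values of the choice. The part of these marker differences in the choice of the 96 genes was not tested. The neuron sum is used below as a covariate. It was low in all TNF plus ACHP libraries and otherwise only in PBS replicate 1, so it largely overlaps with ACHP. Fits with it have less power in the comparisons with ACHP, and fewer calls there do not show an effect of neuron content.

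**Figure D1:**
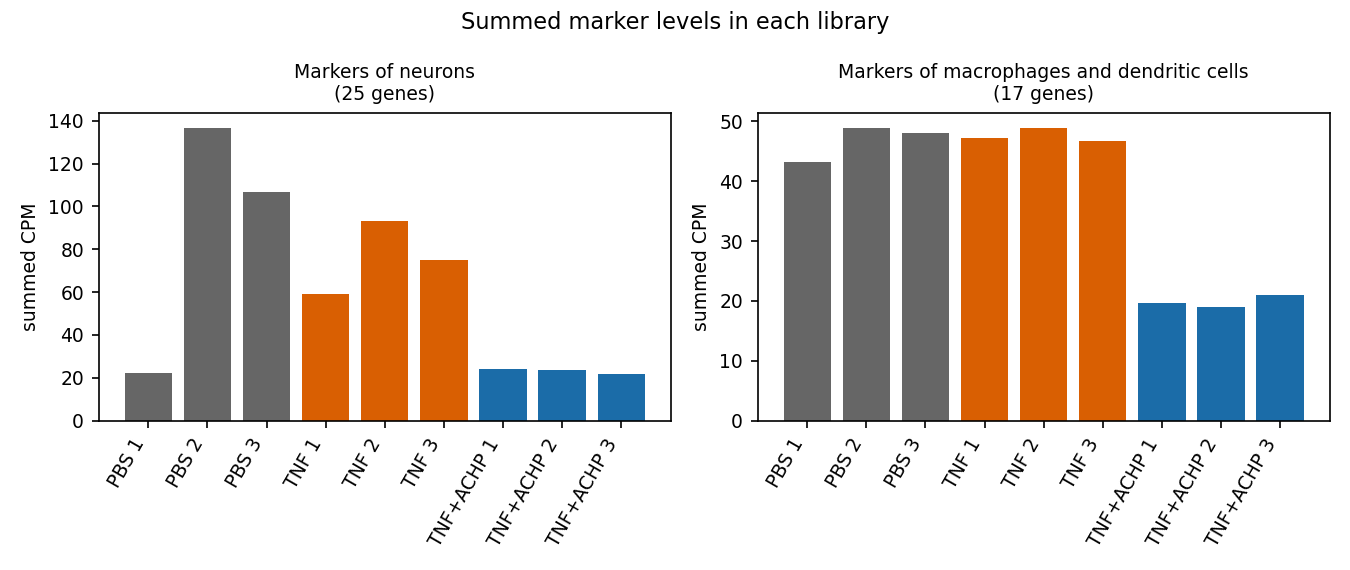
Summed CPM of neuron markers (left) and of macrophage and dendritic cell markers (right), 1 bar per library, in PBS, TNF and TNF plus ACHP cultures. The neuron sum was as low in PBS replicate 1 (22.2 CPM) as with TNF plus ACHP (21.9 to 23.9), while the macrophage sum was at most 20.96 CPM in all 3 TNF plus ACHP libraries and at least 43.2 in the others.

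The ratios were mostly small. The ratio of the TNF plus ACHP mean to the higher of the PBS and TNF means was 4.91 for the first gene, had a median of 1.19 and ended at 1.151, next to the limit of the rule. It was at least 2 for 3 genes, at least 1.5 for 6, between 1.3 and 1.5 for 8, between 1.2 and 1.3 for 27 and under 1.2 for 55. The lowest TNF plus ACHP library exceeded the highest other library by a median factor of 1.06, and for 42 genes by less than 5%. The first 6 are Steap4, Cxcl5, Clca3b, Crct1, Sprr1a and Cebpd. The next 8 are mt-Tc, Map3k14, Grasp, Il11, Sox17, Ybx2, Zfp382 and Csf3. Leaving out any single library kept 13 of these 14 within the rule, Ybx2 being the exception, and all 14 met it with PBS replicate 1 as the only PBS library. Of all 96 genes, 36 met it whichever single library was left out. Dropping libraries can only ease the separation of the groups, so a gene could fail only by its ratio or mean. The ratios of the 14 lie well above that limit. These counts reuse the values of the choice and support nothing.

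The stretches before the start sites of 5 of the 14 genes with ratios of at least 1.3 are shown as examples of how these stretches differ in the factor motifs they hold. RefSeq had 8 of the 14, and the 5 were chosen with the matches known: Grasp, Ybx2 and Zfp382, which are not shown, held none of the 3 motifs marked here. Each is the 250 bases before the annotated start, from RefSeq on GRCm38.p6, written 5′ to 3′ in the direction of the gene. Capitals mark matches, on either strand, to an AP-1 site (TGANTCA), a cyclic AMP response element (TGACGTCA) or a C/EBP site (TTGCNNAA). For Il11, the stretch of 1 of 2 annotated starts is shown, and the other held none of the 3 motifs.
Steap4 (chr5:7960222-7960471, forward strand): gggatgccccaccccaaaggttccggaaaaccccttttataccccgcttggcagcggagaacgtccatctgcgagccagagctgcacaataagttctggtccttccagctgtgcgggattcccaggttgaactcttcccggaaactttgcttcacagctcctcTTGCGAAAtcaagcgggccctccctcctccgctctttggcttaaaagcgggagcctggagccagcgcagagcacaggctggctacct
Clca3b (chr3:144849303-144849552, reverse strand): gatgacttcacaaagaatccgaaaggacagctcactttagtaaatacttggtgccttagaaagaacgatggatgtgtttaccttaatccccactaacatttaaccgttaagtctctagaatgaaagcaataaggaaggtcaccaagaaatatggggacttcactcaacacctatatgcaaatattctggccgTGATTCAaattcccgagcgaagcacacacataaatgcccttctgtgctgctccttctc
Sprr1a (chr3:92485882-92486131, reverse strand): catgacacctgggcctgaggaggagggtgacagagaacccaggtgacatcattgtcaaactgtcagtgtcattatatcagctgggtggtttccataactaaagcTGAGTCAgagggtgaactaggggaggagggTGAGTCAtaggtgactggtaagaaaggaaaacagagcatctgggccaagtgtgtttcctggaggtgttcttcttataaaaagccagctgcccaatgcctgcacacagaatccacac
Il11 (chr7:4778142-4778391, reverse strand): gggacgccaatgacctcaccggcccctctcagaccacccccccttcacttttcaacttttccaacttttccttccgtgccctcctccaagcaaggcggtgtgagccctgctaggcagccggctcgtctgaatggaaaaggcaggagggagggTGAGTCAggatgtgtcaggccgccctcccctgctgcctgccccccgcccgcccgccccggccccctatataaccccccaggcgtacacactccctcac
Map3k14 (chr11:103267402-103267651, reverse strand): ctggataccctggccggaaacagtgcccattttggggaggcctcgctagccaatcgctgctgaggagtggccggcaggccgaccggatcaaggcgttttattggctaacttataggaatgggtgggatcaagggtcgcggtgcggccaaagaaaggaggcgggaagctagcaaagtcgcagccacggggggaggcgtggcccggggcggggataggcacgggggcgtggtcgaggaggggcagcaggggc

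AP-1 matches began 146 and 116 bases before the start of Sprr1a, 98 bases before that of Il11 and 58 bases before that of Clca3b. A C/EBP match began 87 bases before the start of Steap4, and the Map3k14 stretch held none of the 3 motifs. Other motifs were left unmarked. The loose NF-kB form given below also stood in the Steap4 and Map3k14 stretches, and a STAT site in that of Steap4. Neither stood in the stretches shown for Clca3b, Sprr1a and Il11. RefSeq windows were found for 63 of the 96 genes, 76 windows in all, among 32851 windows of all genes. An AP-1 match stood in 7.89% of the members' windows and 6.75% of all windows, a C/EBP match in 6.58% and 9.56%, and a cyclic AMP response element in 5.26% and 1.55%. The members' shares rest on only 6, 5 and 4 windows, and a gene with more than 1 start can count more than once. A loose form of the NF-kB site, GGG and CC with 5 bases between, was in 68.4% and 45.8%, and the xenobiotic response core GCGTG in 42.1% and 28.2%. Bases before the start were richer in G and C in the members' windows, with medians of 61.2% and 52.4%. The windows of all genes were taken without a minimum CPM, while every member had a mean of at least 3 CPM with TNF plus ACHP. The parts of base content and of expression in these shares were not tested. The remaining motifs were a STAT site TTCNNNGAA (2.63% and 7.02%), a TATA box TATAAA (9.21% and 12.4%), an antioxidant response element TGACNNNGC (11.8% and 10.2%), an E-box CACGTG (5.26% and 6.02%), a heat shock element GAANNTTC (6.58% and 6.69%) and an SRF site (0% and 0.0609%). Some of these overlap, as the antioxidant motif does with an AP-1 match of Sprr1a.

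Among secreted factors, the neutrophil chemokine Cxcl5 had the largest ratio and the most uneven one. Cxcl5 (ENSMUSG00000029371, chromosome 5, 90907219 to 90909483 on GRCm39) was at 2.47, 1.45 and 2.13 CPM in the PBS libraries, 2.24, 2.25 and 2.55 in TNF and 4.07, 11.3 and 10.8 with TNF plus ACHP. Replicate 1 with ACHP lay above the other groups but far below its partners, and the mean of 8.72 ± 4.03 CPM (SD, n = 3) was 3.72 times the TNF mean. Il11, a gp130 cytokine of stressed epithelium and fibroblasts, was tight in every group. Its levels (chromosome 7, 4775372 to 4785858) were 37.1, 37.1 and 34.3 CPM in PBS, 41.4, 42.3 and 41.2 in TNF and 59.7, 59.7 and 57.3 with TNF plus ACHP, with all TNF libraries above the PBS libraries. Csf3, the granulocyte growth factor G-CSF (chromosome 11, 98592089 to 98594455), was at 12.5, 10.9 and 11.8 CPM in PBS, 10.7, 13.8 and 10.01 in TNF and 16.5, 15.5 and 14.2 with TNF plus ACHP. Its gap was narrow, since TNF replicate 2 at 13.8 lay just below the lowest ACHP library at 14.2. The growth factor genes Fgf18 and Gdf11 had ratios of 1.24 and 1.17.

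No other chemokine met the rule. Of 18 chemokines tested, Cxcl5 was the single gene called higher with TNF plus ACHP than with TNF and 10 were called lower (0 and 5 with the neuron marker sum as a covariate), where 2.71% and 4.46% of all 14747 genes tested were called, and the rule used this comparison. Cxcl1 and Cxcl2, which attract neutrophils through the same receptor, already rose with TNF alone, by log2 1.03 (SE 0.20, edgeR adjusted p = 0.0027) and 1.51 (SE 0.11, edgeR adjusted p = 2.8e-08), and are named after their values were seen. Cxcl5 differed between TNF and PBS by 0.25 (SE 0.35, edgeR adjusted p = 0.78). Of 22 gp130 and STAT3 genes, 2 were called higher with TNF plus ACHP than with TNF, 1 of them Il11, and 2 were called lower (0 with the neuron covariate and with DESeq2, 4 at an unadjusted p under 0.05). Without TNF replicate 1 or 2, 1 was called higher.

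Clca3b and the keratinising epithelium genes Sprr1a and Crct1 held 3 of the 6 largest ratios. Clca3b, a gene of the CLCA family (ENSMUSG00000037033, chromosome 3, 144528384 to 144555118), was at 24.2, 22.8 and 20.1 CPM in PBS, 20.9, 21.5 and 22.5 in TNF and 55.6, 50.4 and 53.8 with TNF plus ACHP. Sprr1a, a cornified envelope precursor made by stressed epithelium, was at 93.3, 98.3 and 105.4 CPM in PBS, 89.5, 90.1 and 91.6 in TNF and 147.8, 159.3 and 173.5 with TNF plus ACHP. Crct1, a small cysteine-rich protein gene of the same epidermal differentiation complex, was at 7.47, 7.82 and 7.99 CPM in PBS, 7.71, 6.16 and 8.16 in TNF and 12.2, 13.5 and 13.9 with TNF plus ACHP. Every ACHP library stood clear of the others in these 3 genes. PBS and TNF libraries overlapped for Clca3b and Crct1, and the TNF libraries of Sprr1a lay just below PBS (-0.12, SE 0.05, edgeR adjusted p = 0.23). Krt17, a keratin of injured epithelium, was at 42.7, 45.3 and 55.3 CPM in PBS, 54.6, 51.7 and 58.9 in TNF and 62.7, 66.5 and 67.8 with TNF plus ACHP, with PBS replicate 3 among the TNF libraries.

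The list of cornified genes held calls in 1 direction against TNF and in both directions against PBS. Of 19 tested, 4 were called higher with TNF plus ACHP than with TNF, 3 of which are Sprr1a, Crct1 and Krt17, and 0 lower (2 higher with the neuron covariate, 0 lower by DESeq2), with 9 higher and 0 lower at an unadjusted p under 0.05 and a median of 0.23. Against PBS 6 were called higher, 3 of which are again these members, and 4 lower, where 2.18% and 3.87% of all genes were. The median was -0.14. These counts were 3 and 1 with the neuron covariate and 4 to 5 and 2 to 4 without single libraries. The count of 2 lower came without PBS replicate 1 or 2 or any TNF plus ACHP library. TNF against PBS called 1 higher and 5 lower. Ivl, which encodes the envelope protein involucrin, fell with TNF by 0.70 on the log2 scale (SE 0.08, edgeR adjusted p = 7.3e-06), was 0.44 higher with ACHP than with TNF (SE 0.08, edgeR adjusted p = 0.0014) and stayed at -0.26 against PBS (SE 0.07, edgeR adjusted p = 0.044). Sprr2g fell by 0.86 with TNF (SE 0.11, edgeR adjusted p = 3.6e-05) and remained at -0.76 against PBS with ACHP (SE 0.11, edgeR adjusted p = 0.00020). Of the CLCA family 2 of 8 genes were tested, Clca3b and Clca3a2, and Clca3a2 had no call in any comparison (0.64 against TNF, SE 0.36, edgeR adjusted p = 0.33). CLCA genes resemble each other, so their counts are uncertain. Sprr2g and Clca3a2 were chosen after their values were seen.

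**Figure D2:**
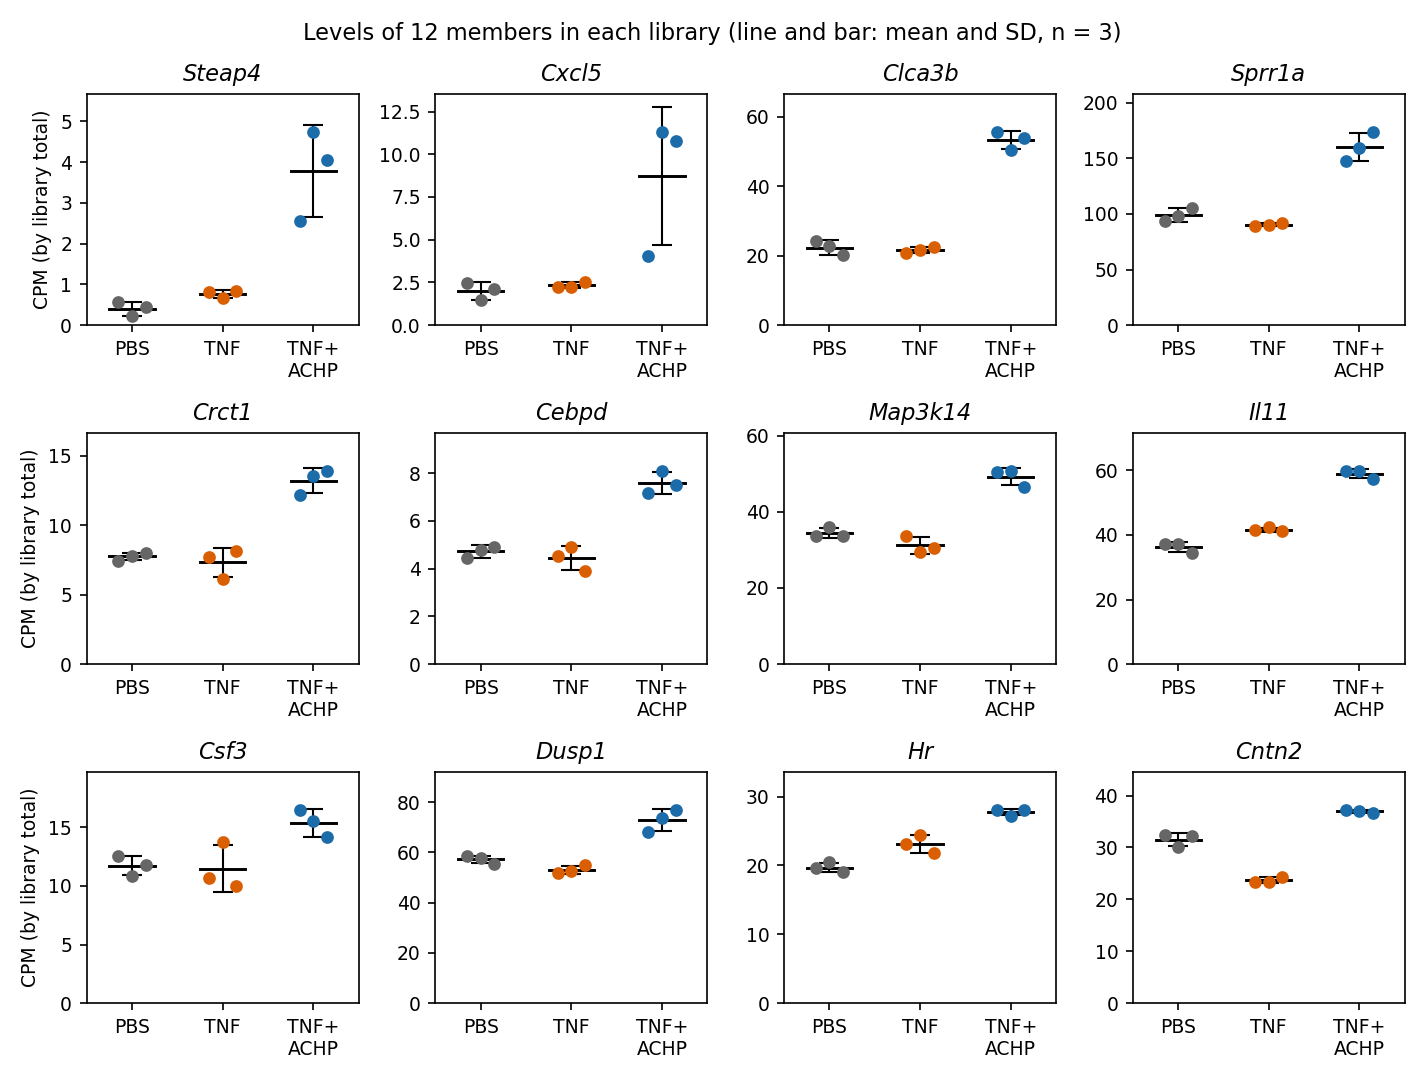
CPM of 12 of the genes in each library, 1 panel per gene, with points for libraries and lines and bars for the mean and SD of 3. In every panel the TNF plus ACHP points lie above all others, as the rule demands. For Il11 and Hr the TNF points also lie above the PBS points, and for Cntn2 they lie below.

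Steap4, a metalloreductase that brings iron and copper into cells and is induced in inflammation, had the largest ratio, at low counts. Its gene (ENSMUSG00000012428, chromosome 5, 8010457 to 8032213) received 8, 4 and 8 reads in the PBS libraries, 15, 10 and 13 in the TNF libraries and 42, 99 and 64 in the TNF plus ACHP libraries. In CPM these were 0.564, 0.223 and 0.438, then 0.820, 0.662 and 0.829, then 2.55, 4.74 and 4.07. All 3 TNF libraries stood above all PBS libraries, and the TNF change of 0.95 on the log2 scale (SE 0.43, edgeR adjusted p = 0.23) did not pass the test. The ratio was 4.91 to TNF and 9.27 to PBS.

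Regulators of transcription and RNA were spread over the range of ratios. Cebpd, a C/EBP factor of acute inflammation (chromosome 16, 15705150 to 15708895, with part of its exon length shared with Spidr), was at 4.44, 4.80 and 4.93 CPM in PBS, 4.54, 4.90 and 3.89 in TNF and 7.17, 8.09 and 7.495 with TNF plus ACHP. It was the single member among 20 C/EBP and KLF genes tested. Of these 2 were called higher, 1 of them Cebpd, and 1 lower with TNF plus ACHP than with TNF. These counts were 1 and 0 with the neuron covariate, and 1 was higher without TNF replicate 2. Against PBS 1 was called higher, Cebpd itself (0 with the covariate). Sox17, a developmental transcription factor with 16.8% of its exon length shared, was at 3.24, 3.96 and 4.10 CPM in PBS, 3.17, 3.51 and 2.55 in TNF and 4.98, 6.27 and 4.38 with TNF plus ACHP, a narrow gap at low counts. Ybx2, a germ cell RNA-binding protein gene, and Zfp382, a zinc finger repressor gene, had means of 3.11 and 4.71 CPM with TNF plus ACHP and ratios of 1.37 and 1.34. Hr, a corepressor of hair follicles and skin, was at 19.6, 20.4 and 19.05 CPM in PBS, 23.1, 24.4 and 21.7 in TNF and 28.0, 27.2 and 28.0 with TNF plus ACHP. Taf1c, of the RNA polymerase I initiation factor, had a ratio of 1.28 with 16.7% of its exon length shared.

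Some other regulators had ratios near 1.2 and are named here after their values were seen. Noct, which encodes the circadian phosphatase nocturnin, was at 112 ± 4.40, 116 ± 0.911 and 140 ± 1.295 CPM in PBS, TNF and TNF plus ACHP (SD, n = 3). Zc3h12a, the RNase Regnase-1 that degrades cytokine mRNAs, was at 10.9 ± 1.49, 13.6 ± 0.785 and 16.3 ± 1.69 CPM, and its TNF change was 0.33 (SE 0.11, edgeR adjusted p = 0.081). Pias3, an inhibitor of STAT3, had a ratio of 1.16, and Meis3, Irf2bp1 and Thap7 had ratios of 1.18, 1.22 and 1.18.

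Kinase signalling genes included a driver of NF-kB and a brake on MAP kinases. Map3k14 encodes NIK, the kinase that drives non-canonical NF-kB. It was (chromosome 11, 103110588 to 103158298) at 33.7, 35.9 and 33.8 CPM in PBS, 33.8, 29.4 and 30.4 in TNF and 50.5, 50.7 and 46.6 with TNF plus ACHP. Every ACHP library lay more than 10 CPM above every other one, and the ratio was 1.43 to PBS and 1.58 to TNF. Other genes of this route were divided: of 15 tested, 6 rose with TNF, and with ACHP 5 were called lower than with TNF and 3 higher, 1 of them Map3k14 (4 and 1 with the neuron covariate, and 3 and 1 without TNF replicate 2). Nfkb2 and Relb, the subunits that NIK activates, rose with TNF by 0.40 (SE 0.04, edgeR adjusted p = 7.3e-06) and 0.59 (SE 0.07, edgeR adjusted p = 3.2e-05). With ACHP they were lower than with TNF, by -0.18 (edgeR adjusted p = 0.015) and -0.40 (edgeR adjusted p = 0.0016). Otud7b, a deubiquitinase that restrains this route, was 0.21 higher than with TNF (SE 0.04, edgeR adjusted p = 0.0047).

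Dusp1, the phosphatase that switches off p38 and JNK, was at 58.5, 57.7 and 55.5 CPM in PBS, 51.7, 52.6 and 54.8 in TNF and 68.1, 73.8 and 76.9 with TNF plus ACHP. Its TNF libraries all lay below its PBS libraries, by -0.10 on the log2 scale (SE 0.05, edgeR adjusted p = 0.35), which did not pass the test. Dusp1 was the single member among 20 genes of MAP kinase feedback. Of these 5 were called higher with TNF plus ACHP than with TNF, 5 were higher than in PBS, and 0 were lower in either (3 and 3 higher with the neuron covariate, 0 lower by DESeq2, and 0 and 2 lower at an unadjusted p under 0.05). Against PBS 2 were called without TNF plus ACHP replicate 3. The receptor inhibitor Errfi1 was 0.23 higher than with TNF (SE 0.04, edgeR adjusted p = 0.00073) and the ERK phosphatase Dusp5 0.20 (SE 0.05, edgeR adjusted p = 0.029). Dusp5 missed the rule by its ratio of 1.149. Mapk15, an atypical MAP kinase gene at 3.15 ± 0.276, 3.21 ± 0.429 and 4.02 ± 0.486 CPM (SD, n = 3), and Rps6ka2, a ribosomal S6 kinase gene, had ratios of 1.26 and 1.17. Of 28 AP-1 and immediate early genes tested, none is a member. There, 4 were called higher than with TNF, among them Jund (0.35, SE 0.05, edgeR adjusted p = 5.7e-05), and 8 higher than with PBS, and these counts were 1 and 2 with the neuron covariate. The first was also 1 without TNF replicate 2 and the second 2 without PBS replicate 2 or TNF plus ACHP replicate 3.

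Sterol synthesis gave 4 of the 96 genes, 3 of which are described here. Tm7sf2, a sterol reductase gene with 12.1% of its exon length shared, was at 11.1, 11.1 and 10.8 CPM in PBS, 10.1, 8.74 and 9.25 in TNF and 13.9, 14.5 and 13.7 with TNF plus ACHP. Fdps, which makes farnesyl diphosphate, was at 161, 157 and 174 CPM in PBS, 154, 159 and 159.5 in TNF and 189.8, 200.5 and 199 with TNF plus ACHP. In both genes the ACHP libraries were high, while the TNF libraries of Tm7sf2 lay below its PBS libraries and those of Fdps overlapped them. Mvd, which acts before Fdps, had means of 14.2 ± 1.38, 13.4 ± 1.08 and 17.2 ± 0.969 CPM in PBS, TNF and TNF plus ACHP (SD, n = 3).

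The other genes of the sterol list did not meet the rule, but some were called higher with TNF plus ACHP. All 24 list genes were tested, and TNF against PBS called 0 by edgeR (0 higher and 6 lower at an unadjusted p under 0.05, and 1 lower by DESeq2). TNF plus ACHP against TNF called 12 higher, 4 of them members, and 0 lower (also by DESeq2 and at an unadjusted p under 0.05), with a median log2 difference of 0.17 where the median over all genes was 0.00. Against PBS 8 were called higher, 3 of them members, with a median of 0.15. With the neuron marker sum as a covariate, which overlaps with ACHP, these counts were 5 and 1. Those over all genes fell from 400 to 100 and from 321 to 54, while genes called higher with TNF than with PBS went from 488 to 514. Without single libraries the counts of the list were 8 to 14 and 3 to 9, the lowest without TNF replicate 2 and without PBS replicate 2. Among the genes that are no members, Fdft1, which makes squalene, was higher by 0.28 against TNF (SE 0.04, edgeR adjusted p = 0.00041) and 0.21 against PBS (SE 0.04, edgeR adjusted p = 0.0062).

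Akap12 and Itga3 had the highest CPM of the 96 genes, which transcript length also sets. Akap12, a scaffold of protein kinases A and C, was at 1717, 1665 and 1528 CPM in PBS, 1514, 1495 and 1586 in TNF and 2002, 1851 and 1967 with TNF plus ACHP. Itga3, the alpha 3 integrin of tubular cells, was at 1342, 1291 and 1358 CPM in PBS, 1257, 1261 and 1289 in TNF and 1477, 1574 and 1598 with TNF plus ACHP. Both stood higher in all ACHP libraries, with TNF and PBS libraries overlapping for Akap12 and apart, TNF low, for Itga3 (TNF change -0.06, SE 0.03, edgeR adjusted p = 0.40). Epha2, an ephrin receptor kinase gene, had means of 227 ± 7.01, 222 ± 4.31 and 263 ± 9.43 CPM (SD, n = 3), and Sema6a, a guidance cue gene, 228 ± 10.6, 217 ± 8.17 and 274 ± 3.65 CPM. Other genes of the cell surface or of innate defence stood at lower CPM. Thbd, the anticoagulant receptor thrombomodulin, was at 75.1 ± 3.49, 68.9 ± 1.76 and 91.6 ± 1.59 CPM and Trim56, an antiviral ubiquitin ligase gene, at 121 ± 5.19, 118 ± 8.28 and 148 ± 7.497 CPM. Ulbp1, a ligand of the natural killer receptor NKG2D, was at 35.0 ± 0.646, 35.1 ± 0.802 and 41.0 ± 1.92 CPM.

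Cntn2, an adhesion molecule of axons, behaved unlike the neuron markers. Cntn2 (chromosome 1, 132437165 to 132470994) was at 32.3, 30.0 and 32.2 CPM in PBS, 23.3, 23.3 and 24.4 in TNF and 37.2, 37.0 and 36.6 with TNF plus ACHP. The TNF libraries all lay below the PBS libraries, and those with ACHP above all others, as the rule demands. PBS replicate 1, where the neuron sum was 22.2 CPM, did not stand apart from PBS replicate 2, where it was 136.8.

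Glucose and stress genes were also present. Slc2a1, the glucose transporter GLUT1, was at 231, 242 and 249 CPM in PBS, 206, 217 and 222 in TNF and 265, 282 and 292 with TNF plus ACHP, with all TNF libraries below the PBS libraries. It was the single member among 37 glycolysis and hypoxia genes tested, of which 8 were called higher with TNF plus ACHP than with TNF, and 6 were higher than in PBS. In either comparison 0 were called lower, also by DESeq2, with 2 and 5 at an unadjusted p under 0.05. Both counts of higher genes were 1 with the neuron covariate, and the first fell to 1 without TNF replicate 2 or TNF plus ACHP replicate 2. The second fell to 2 without TNF replicate 1 or 2 or TNF plus ACHP replicate 2 or 3. Hspb1, a small heat shock protein gene, had means of 66.3 ± 5.85, 61.8 ± 1.79 and 80.8 ± 4.96 CPM (SD, n = 3). Of 20 heat shock genes 1 that is not a member, Cryab, was called higher with TNF plus ACHP than with TNF (0.24, SE 0.04, edgeR adjusted p = 0.00044). The list as a whole had a median of -0.04 in this comparison, with 2 higher, members included, and 4 lower at an unadjusted p under 0.05. Of 17 glucocorticoid-responsive genes 2 are members, Cebpd and Dusp1, and 3 were called higher and 3 lower than with TNF (2 and 0 with the neuron covariate, and 1 lower without TNF replicate 1 or 3). In all, 16 of the 96 genes are in any of the 22 family and pathway lists and 80 are in none.

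Among the remaining genes, Grasp, a scaffold of neurotransmitter receptors, was at 2.68, 2.90 and 2.85 CPM in PBS, 2.73, 2.05 and 3.32 in TNF and 4.01, 4.60 and 3.43 with TNF plus ACHP, so its lowest ACHP library barely passed TNF replicate 3. The mitochondrial tRNA gene mt-Tc was at 3.25 ± 0.156 CPM with TNF plus ACHP (SD, n = 3), 1.44 times the TNF mean, and short RNAs are poorly sampled by RNA libraries. Chchd5, a mitochondrial intermembrane protein gene, and Lancl3 had ratios of 1.28 and 1.25. Of the 96 genes, 13 share over 10% of their exon length with another gene, so their counts are less certain, and the largest share was 43.4% for Pcdhgb2. Of the 96, 7 have only a clone name or an identifier. By level with TNF plus ACHP, 28 of the genes were under 10 CPM, 58 between 10 and 100 and 10 at 100 or more, and their median of 16.7 CPM compares with 35.8 over all genes of at least 3 CPM.

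For most of the 96 genes no change with TNF alone was detected. Of the 96, 2 were called higher with TNF than with PBS, 2 lower and 92 neither way, by edgeR's quasi-likelihood test with Benjamini-Hochberg adjustment over 14747 genes, where 3.31% of all genes were called higher and 2.91% lower. At an unadjusted p under 0.05 there were 14 of the 96, or 14.6%, and 18.7% of all genes tested. The rule bounds the TNF and PBS values of the 96 from above, so these shares are not independent of it. Il11 rose by 0.22 on the log2 scale (SE 0.05, edgeR adjusted p = 0.021) and Hr by 0.24 (SE 0.07, edgeR adjusted p = 0.045). Cntn2 fell by 0.40 (SE 0.06, edgeR adjusted p = 0.00026) and Slc2a1 by 0.15 (SE 0.04, edgeR adjusted p = 0.031). Cntn2 kept its call in all 18 alternatives, while Hr lost it in 15, and Il11 and Slc2a1 each lost it in 5, including without TNF replicate 1 or 2.

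For the whole set, the TNF mean was above the PBS mean in 44 genes and below it in 52, or 45.8% above, against 45.5% of all genes tested. The median change was -0.00, the same as over all genes, with a range from -0.40 to 0.95. In the main fit, Il11 and Hr were also called higher with TNF, so the description as genes raised only with ACHP present does not hold for them there. Il11 kept this call in 13 of 18 alternatives and Hr in 3. The share of all genes called higher was 3.31%. For 92 of the 96 no TNF change was detected at this number of libraries.

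**Figure D3:**
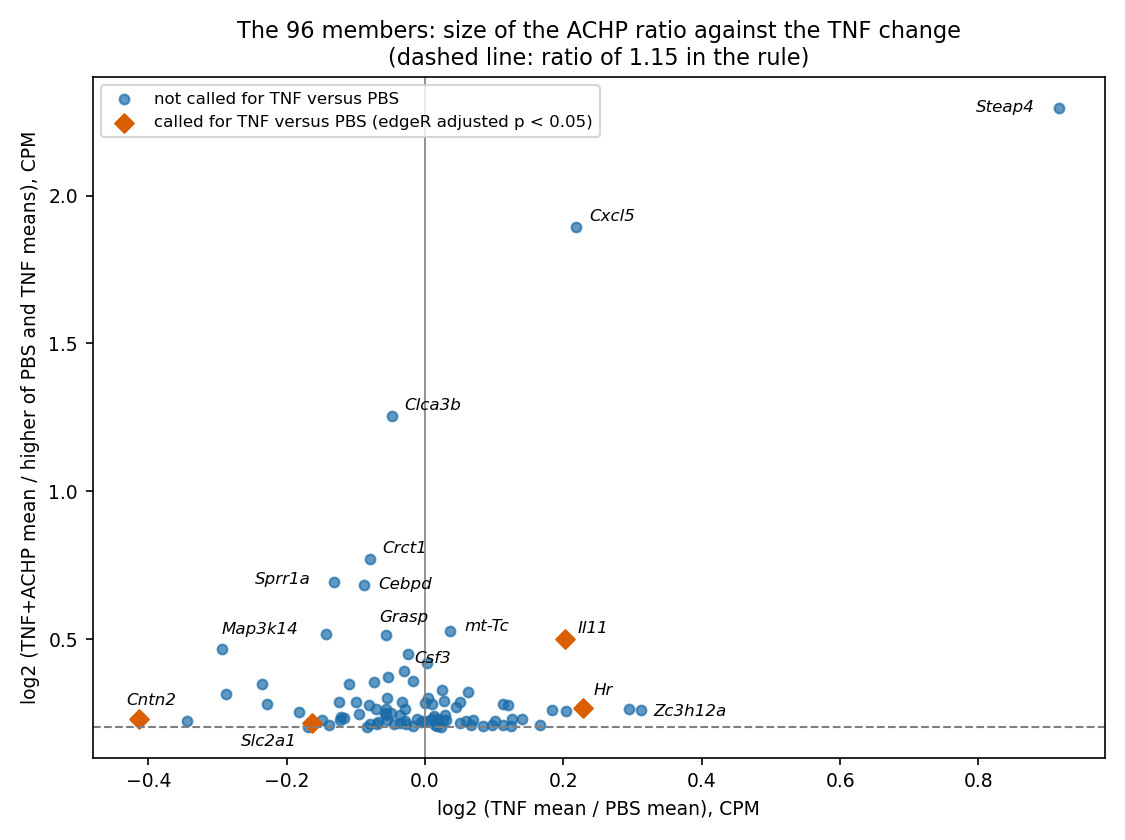
Each of the 96 genes by its log2 ratio of TNF to PBS mean CPM (x axis) and its log2 ratio of the TNF plus ACHP mean to the higher of the other means (y axis), which the rule bounds from below at the dashed line. Diamonds mark Il11, Hr, Cntn2 and Slc2a1, the 4 genes called for TNF versus PBS. Most points lie close to the dashed line and to both sides of 0, with Steap4 farthest to the right.

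Most of the genes, but not all, had a high GC content. The median GC content of their transcripts was 54.8% (95 of 96 with a value), against 49.3% for all tested genes of at least 3 CPM. In 5 equal groups of genes from the lowest to the highest GC content, 0.267%, 0.311%, 0.445%, 1.201% and 2.00% of genes were members, which makes 6, 7, 10, 27 and 45 of them. Cxcl5 and Steap4, with the largest ratios, had 41.3% and 44.7%, and the 14 genes with ratios of at least 1.3 had a median of 52.1%, against 55.0% for the others. All genes together followed GC content in the same comparisons: the median log2 difference of TNF plus ACHP from TNF went from -0.02 in the lowest group to 0.08 in the highest, and that from PBS from -0.02 to 0.07. TNF against PBS stayed between -0.02 and 0.02 with no such slope. With this trend levelled in each library, 45 of the 96 genes still met the rule, and they were 11 of the 14 with a ratio of at least 1.3, 21 of the 27 between 1.2 and 1.3 and 13 of the 55 below. A ratio close to the limit of the rule is lost after a small shift. These shares therefore cannot separate GC content from distance to the limit. Grasp, Ybx2 and Csf3 were the ones of high ratio that did not, while Steap4, Cxcl5, Clca3b, Crct1, Sprr1a, Cebpd, Map3k14 and Il11 did. Exon length was shorter than usual, with medians of 3796.5 bases against 4674 and 8 exon blocks against 10, and the 14 genes of highest ratio had 2057 bases and 5 blocks.

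**Figure D4:**
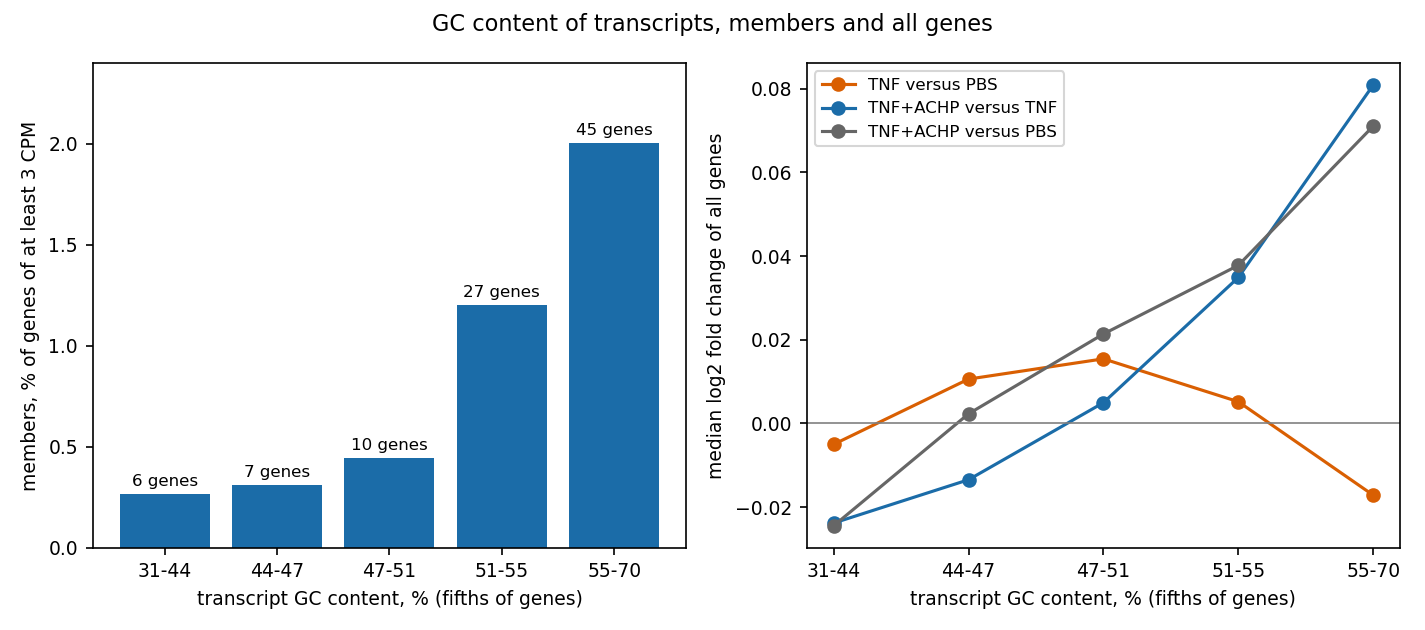
Left: percent of genes of at least 3 CPM that are among the 96, in 5 equal groups by transcript GC content, with their numbers above the bars. Right: median log2 fold change of all genes in the same groups for the 3 comparisons. The share rose from 0.267% to 2.00%, and both comparisons with ACHP rose with GC content, to 0.08 and 0.07, while TNF versus PBS did not.

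By position, the genes were spread over the genome, with 10 on chromosome 11, 9 on chromosome 4 and 8 on chromosome 3. Within 1 Mb of each other lay 10 groups of members. Sprr1a and Crct1 were 2 of only 4 tested genes between 92391259 and 92922994 on chromosome 3, and Hr and Nudt18 were neighbours with no tested gene between them on chromosome 14. The largest groups, Mapk15 with Dgat1, Fbxl6 and Lrrc14 on chromosome 15 and Pold4 with Syt12, Drap1 and Tm7sf2 on chromosome 19, lay in spans with 33 and 61 tested genes.

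At the edges of the rule, values ran on without a step. Members just inside the limit were Inpp4a and Mpv17l2 (1.151 and 1.152), and the genes just short of it were Dusp5, Lrp11 and Stom (1.149, 1.149 and 1.148). By level, Ybx2, mt-Tc and Steap4 entered with 3.11, 3.25 and 3.79 CPM, and Mroh2a, Ankrd9 and Arsg fell short with 2.88, 2.65 and 2.64. The same rule with the groups exchanged took 235 genes with TNF as the high group and 230 with PBS, and 155 genes met its mirror image with TNF plus ACHP as the low group, so 96 was the smallest of these sets.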

How the data were processed

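Expression was measured by RNA sequencing in 9 libraries, 3 each of PBS, TNF and TNF plus ACHP. The authors' deposited values are unnormalised counts for each Ensembl gene, made by featureCounts 2.0.1 with Ensembl 109 on GRCm39, per the file headers. The submitters' processing notes name STAR, featureCounts, DESeq2 and mm10. Gene coordinates are those of the table, on GRCm39. Promoter sequences are RefSeq's on GRCm38.p6. The counting command sets no option for strand, multi-mapping or overlapping reads, per the file headers, so a gene and its antisense partner cannot be told apart and the counts are less certain where genes overlap. Of 57010 gene identifiers, 52029 matched a symbol, with 99.6% of the counts.

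CPM was computed from library totals, and the rule applied to it. Counts were fitted in R 4.3.3 with edgeR 4.0.16 (filterByExpr, 14747 genes, TMM factors 0.993 to 1.01, glmQLFit on all 9 libraries, no block), and a gene was called where its p, adjusted after Benjamini and Hochberg, was under 0.05. All 96 members passed the filter. The spread between replicates was a coefficient of variation of 4.01%, and replicate pairs differed by more than sampling noise (chi-square per degree of freedom 1.81 to 6.00). SE is the log2 fold change over the square root of the quasi-likelihood F. The fit was tested on simulated data. Alternatives were DESeq2 1.42.0, other scalings, filters, thresholds, a replicate block, a neuron marker covariate, leaving out each library, and, chosen after seeing the data, levelling GC content in 20 bins and using PBS replicate 1 alone. Members, lists and tests were chosen with earlier results of these data known, and lists are described by counts without a set test. Genes named by rule are the 20 of highest ratio with a plain symbol, those of highest level, up to 3 per list, those called for TNF versus PBS and those next to the thresholds. Non-members are named by a like rule, except where their choice is stated. Fgf18, Gdf11, Noct, Zc3h12a, Pias3, Meis3, Irf2bp1, Thap7, Rps6ka2, Thbd, Trim56, Ulbp1, Pcdhgb2 and the neighbours on a chromosome were named after their values were seen. Some genes that the naming rule selects are not reported here.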

Additional observations from a re-analysis of the deposited data

How the results depend on the processing

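The set of 96 genes depended on the cut and on single libraries. With a ratio of at least 1.3 it held 14 genes and with at least 1.5 it held 6, by construction. Leaving out 1 library at a time gave 95 to 260 genes, with 162 without PBS replicate 3, 260 without TNF plus ACHP replicate 1 (84 of the 96 among them) and 147 without TNF plus ACHP replicate 3 (73 of the 96). With GC content levelled it was 48 genes, 45 of them among the 96, and with PBS replicate 1 as the only PBS library 204, with 78 of the 96. TMM scaling gave 112 genes, a minimum of 1 CPM gave 113, a minimum of 10 CPM gave 68 and totals without the 20 genes of most counts gave 96.

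Of the 2 members higher with TNF, 1 was called with library totals alone, with DESeq2, with the neuron marker covariate and with only the 6 libraries of the comparison, and 0 at an adjusted p under 0.01. Without single libraries it was 0 to 2 higher and 1 to 3 lower, with 0 and 1 without TNF replicate 1 or 2, and at an adjusted p under 0.01 it was 1 lower. The cause was not tested. The median TNF change stayed between -0.03 and 0.01 in all 18 alternatives. Same-numbered TNF and PBS libraries had correlations of 0.17, 0.17 and -0.01 in their deviations, so the numbers were not taken as pairs. With the replicate block 2 members were higher and 2 lower, and the median was -0.00. Krt17 gained a TNF call in 3 alternatives. Genes at a few CPM, such as Steap4 with 4 to 99 counts, limit what these depths can show.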

Other observations

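Some pathway lists that can respond to a kinase inhibitor or to TNF are described here for their own calls. They held none of the 96 genes, from which nothing follows, since the rule took only 0.85% of genes and each list is short. Of 7 aryl hydrocarbon receptor genes tested, 0 were called by edgeR or DESeq2 between TNF plus ACHP and TNF (1 higher and 1 lower at an unadjusted p under 0.05), and of 27 NRF2 targets 1 was called higher and 1 lower (0 and 0 with the neuron covariate). Of 27 genes of ATF4 and the amino acid response 1 was called higher (0 with the neuron covariate, 13 at an unadjusted p under 0.05), and of 17 genes of the EGF receptor family 0 were called by edgeR or DESeq2 (2 higher at an unadjusted p under 0.05). Of 28 TGF-beta and YAP targets 6 were called higher and 3 lower than with TNF, and these were 0 and 1 with the neuron covariate and 1 higher without TNF replicate 2. Of 26 genes of canonical NF-kB signalling and its feedback, 7 rose with TNF and 7 were called lower with ACHP than with TNF.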
